A study of Mus musculus with 40 samples.

Results

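The constitutive proteasome genes were described in mouse macrophages before and after stimulation of Toll-like receptor 4. They were chosen by name alone, as genes whose symbol starts with Psma, Psmb, Psmc, Psmd, Psmf or Psmg and a digit, without the immunoproteasome genes Psmb8, Psmb9 and Psmb10. Among the 22865 genes with expression values, 42 carried such a name, and 39 of them reached 20 tags per 10 M library tags in at least 2 RNA-Seq libraries, the limit set for every gene tested. The 3 that did not were Psmb3, Psmb5 and the thymus subunit Psmb11. Psmc3ip was kept by its name, although its product is a meiotic recombination protein and no proteasome subunit, and Psma8 encodes an alternative alpha subunit of the testis. Counts without these 2 genes are given beside the main result.

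The macrophages were elicited with thioglycollate broth in the peritoneum of C57BL6/J and BALBc/J mice, a pair of inbred strains, and the cells that adhered overnight were used. Their medium was exchanged for plain medium (no treatment) or for medium with Kdo2-lipid A (KLA) at 100 ng/ml. KLA is the active part of bacterial lipopolysaccharide and binds Toll-like receptor 4. RNA-Seq of polyadenylated RNA had 1 library per strain for no treatment, KLA 1 hr and KLA 4 hr, and GRO-Seq, which counts RNA still attached to the polymerase, had 1 per strain for no treatment and KLA 1 hr. ChIP-Seq lists of PU.1, C/EBPa, H3K4me2 and H3K27Ac came from no treatment and KLA 1 hr, and p65, a subunit of NF-kB, was mapped after KLA 1 hr with 2 replicates per strain. Libraries of the 2 strains come from different mice, but nothing in the labels says how many animals or cultures stand behind a library. The p-values therefore reflect the spread among these libraries only. That spread may be technical in part, and it also holds any response to KLA that differs between the strains.

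The proteasome degrades proteins marked with ubiquitin. Its 20S core is a stack of rings of alpha and beta subunits, encoded by the Psma and Psmb genes, and the proteolytic sites lie in Psmb5 (chymotrypsin-like), Psmb6 (caspase-like) and Psmb7 (trypsin-like). The 19S regulator binds and unfolds substrates with ATPases (Psmc) and non-ATPase subunits (Psmd), and assembly needs chaperones (Psmg1 to Psmg4 for the core, Psmd5, Psmd9 and Psmd10 for the base of the regulator). In inflamed cells, Psmb8, Psmb9 and Psmb10 can replace Psmb5, Psmb6 and Psmb7 and form the immunoproteasome, which alters the peptides made for antigen presentation.

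RNA-Seq libraries held 17.0 to 20.3 M tags, with 88.7 to 90.6% in exons, and GRO-Seq libraries 39.4 to 48.3 M, with 7.39 to 9.83% in exons, so GRO-Seq values rest on far fewer exon tags. All 8 macrophage markers listed passed the limit in RNA-Seq, with a summed level of 76034 to 102413 tags per 10 M. Of the other cell types, the 6 mesothelial and fibroblast markers summed to 1502 to 2114 in C57BL6/J and 3297 to 3716 in BALBc/J. The T and NK cell markers summed to 8.8 to 20.8 before KLA 4 hr and 188 to 241 after it, but only 1 of the 6 passed the limit. From no treatment to KLA 4 hr the neutrophil markers, of which 1 passed, went from 134 to 342 in C57BL6/J and from 78.5 to 152 in BALBc/J. Mast cell markers, of which 2 passed, went from 51.2 to 17.8 and from 62.9 to 25.3. The part of these other cell types in the results was not tested.

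Transcript levels, as counted, of subunits that enter the complex together were spread widely. The counting of reads that match several places is not given, so levels of different genes are compared with that limit. Scaled to mRNA length, the mean untreated level of the alpha ring genes ran from 13.5 tags per 10 M per kb for Psma5 to 1506 for Psma7, with Psma3 at 38.2, Psma4 at 120, Psma2 at 196, Psma1 at 768 and Psma6 at 939. The 5 beta ring genes that passed lay between 364 (Psmb7) and 1829 (Psmb4), with Psmb6 at 1125. The 6 ATPase genes ran from 147 for Psmc1 to 812 for Psmc3. Among the 11 non-ATPase genes Psmd11 was lowest at 76.9 and Psmd8, a lid subunit, highest at 3924, where their median was 624. In all 6 libraries Psmd8 lay above every other of the 39 genes, at 2703 to 5042 per kb. Behind it Psmb4 (1723 to 2364) was above Psma7 (1273 to 1814) and Psmb6 (1074 to 1913) in each library, although their ranges overlapped. Psma6 (897 to 2613) overlapped with all 3, and its place changed from library to library. The 7 assembly chaperones lay between 118 and 343, and the regulator Psmf1 (PI31), which binds the core, was at 133.

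**Figure D1:**
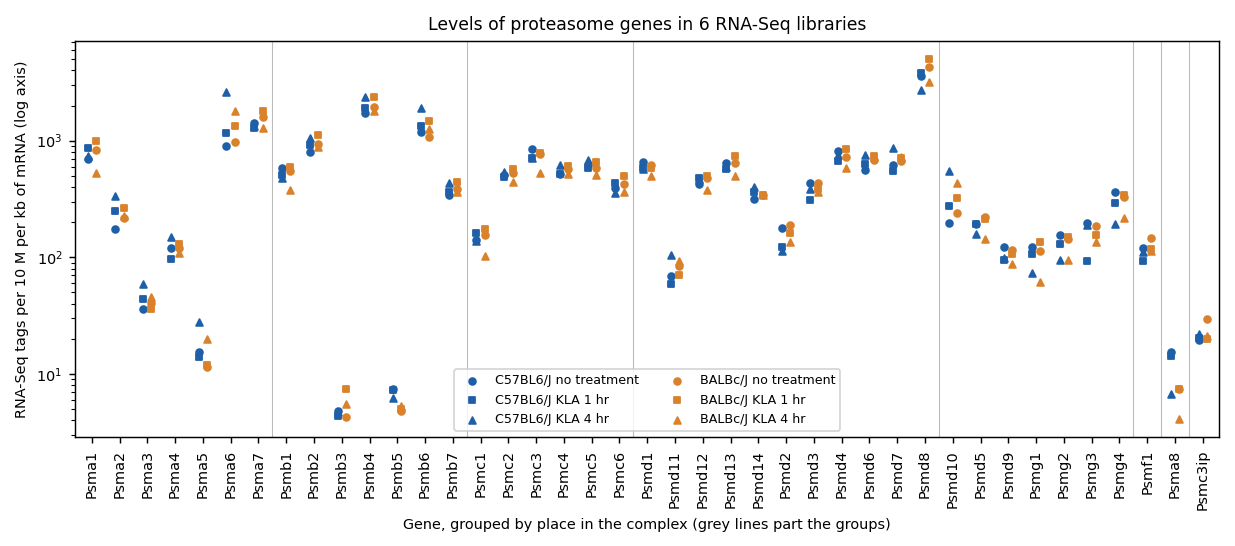
RNA-Seq tags per 10 M per kb of mRNA (log axis) of the 41 genes with any tag, grouped by place in the complex; each point is 1 library, colour gives the strain and shape the treatment. Psmd8 is highest in every library, while Psma5, Psmb3 and Psmb5 sit far below the other ring subunits.

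Psmb5, which encodes a catalytic subunit, was nearly without tags. Its RNA-Seq level was 6.48, 6.38 and 5.43 tags per 10 M in C57BL6/J (no treatment, KLA 1 hr and KLA 4 hr) and 4.16, 4.32 and 4.60 in BALBc/J, and its GRO-Seq level was 2.40 to 3.21. Psmb3 was at 3.12 to 5.40 in RNA-Seq and higher, at 6.97 to 14.3, in GRO-Seq. The RefSeq gene table names 6 pseudogenes of the listed genes, 1 each of Psma5 and Psmb5 and 2 each of Psmb6 and Psmb7. The counting of reads that match several places is not given in the sources at hand. None is named for Psmb3. The levels of the listed genes relative to each other are uncertain for that reason, and the part of pseudogenes in the low levels was not tested.

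At the promoters, the histone marks were near universal and PU.1, an ETS-family factor of the myeloid lineage, was found more often than at other genes. Within 1000 bp of the transcript start, 37 of 39 genes (94.9%) had an H3K27Ac region and 38 (97.4%) an H3K4me2 region in all 4 lists of that mark, against 78.9% and 93.5% of the 10692 genes tested. A PU.1 peak stood in all 4 PU.1 lists at 32 genes (82.1%), against 66.0% of genes tested, and within 200 bp at 29 (74.4%), against 43.6%. With peaks at or over the median signal of their list alone, the shares within 1000 bp were 46.2% and 42.5%. C/EBPa stood in all 4 lists at 9 genes (23.1%) against 38.3%, but in any list at 74.4% against 73.3%. Psma7, Psma8 and Psmc1 had no PU.1 peak in any list, and Psma8 had no H3K27Ac region. These shares are descriptions with no test, and the level of expression was not matched.

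**Figure D2:**
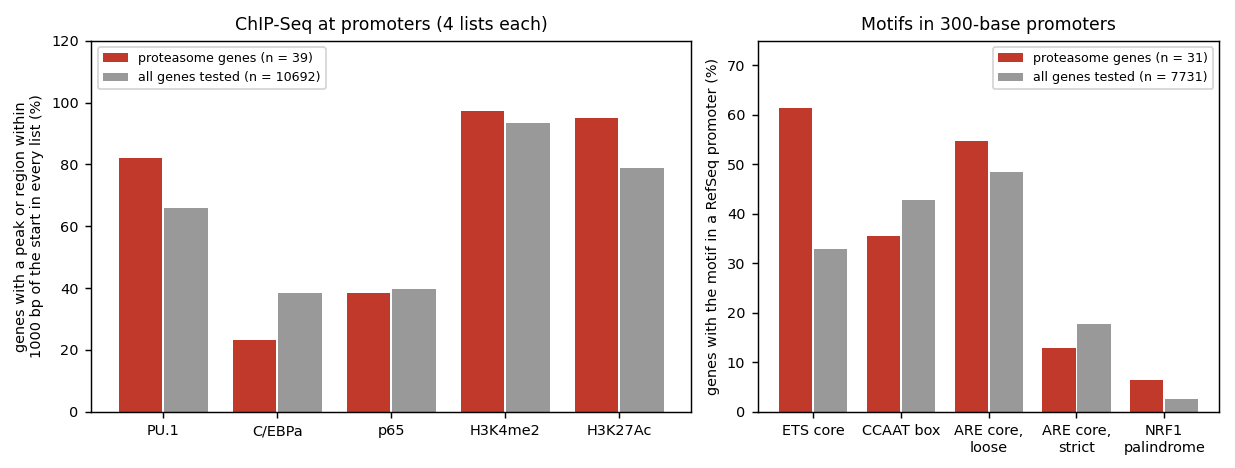
Left, share of genes (%) with a peak or region within 1000 bp of the start in all 4 ChIP-Seq lists of each factor or mark; right, share of genes (%) with a motif in a 300-base RefSeq promoter; red bars are the proteasome genes and grey bars all genes tested. PU.1 and H3K27Ac bars and the bar of the ETS core are higher for the proteasome genes, 82.1 against 66.0%, 94.9 against 78.9% and 61.3 against 32.8%.

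The RefSeq promoters (GRCm38.p6, 300 bases that span the start) were matched for 31 of the 39 genes, in 33 entries. The ETS core CCGGAA, searched on both strands, lay in 19 of the 31 genes (61.3%), against 32.8% of 7731 tested genes with a promoter. By entry it lay in 60.6% of 33, against 14.9% of all 32851 promoters of this length. Around genes with the core, PU.1 stood within 200 bp in all 4 lists at 15 of 19 genes (78.9%), and at 10 of 12 (83.3%) without it. Over all tested genes these shares were 56.2% and 38.0%. The CCAAT box lay in 35.5% of the matched genes, against 42.9% of tested genes.

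Nfe2l1 and Nfe2l2 bind the antioxidant response element and are known regulators of proteasome genes. The full element TGACTCAGC was in none of the 33 entries, as in 0.454% of all promoters. Of its looser forms, TGACNNNGC was in 12.9% of matched genes, against 17.6% of tested genes, and TGANNNNGC, which includes it, in 54.8% against 48.4%. No kappaB motif of NF-kB was in these windows, and the palindrome of nuclear respiratory factor NRF1 was in Psma2 and Psmg1 (6.5% against 2.6% of tested genes). No match says only that these letters are not in this window.

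Psma2, Psmg1 and Psmc3ip held the most motif classes, 3 each, and are printed for that. In Psmg1 and Psmc3ip one of the 3 is the loose form TGANNNNGC, which is common and is not capitalised. Psma6 and Psmd10, the genes with the largest increase after KLA, were added after their values were seen. Capitals mark CCGGAA or CCAAT on either strand and, in Psma2 and Psmg1, the NRF1 palindrome. The entries lie at chr13:14612992-14613291 (Psma2, plus strand), chr16:95990911-95991210 (Psmg1, minus strand), chr11:101095386-101095685 (Psmc3ip, minus strand), chr12:55398575-55398874 (Psma6, plus strand) and chrX:140956662-140956961 (Psmd10, minus strand).
Psma2: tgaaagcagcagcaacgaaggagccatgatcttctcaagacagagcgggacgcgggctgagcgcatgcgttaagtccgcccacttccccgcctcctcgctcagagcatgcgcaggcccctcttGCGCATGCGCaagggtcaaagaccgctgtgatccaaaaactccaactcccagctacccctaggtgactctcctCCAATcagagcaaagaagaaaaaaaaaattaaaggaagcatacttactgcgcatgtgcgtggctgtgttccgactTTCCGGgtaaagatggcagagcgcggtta
Psmg1: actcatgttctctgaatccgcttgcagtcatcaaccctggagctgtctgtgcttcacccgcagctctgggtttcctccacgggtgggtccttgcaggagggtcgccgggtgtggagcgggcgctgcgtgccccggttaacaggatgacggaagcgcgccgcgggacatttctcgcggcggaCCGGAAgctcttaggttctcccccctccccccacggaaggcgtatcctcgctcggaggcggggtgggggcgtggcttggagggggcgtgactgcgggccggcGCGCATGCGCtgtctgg
Psmc3ip: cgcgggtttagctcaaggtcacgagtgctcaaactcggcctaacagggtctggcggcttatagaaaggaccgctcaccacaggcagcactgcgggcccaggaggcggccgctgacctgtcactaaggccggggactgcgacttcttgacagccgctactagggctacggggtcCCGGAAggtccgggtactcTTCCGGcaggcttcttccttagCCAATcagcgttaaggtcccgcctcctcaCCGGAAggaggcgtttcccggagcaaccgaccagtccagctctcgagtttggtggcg
Psma6: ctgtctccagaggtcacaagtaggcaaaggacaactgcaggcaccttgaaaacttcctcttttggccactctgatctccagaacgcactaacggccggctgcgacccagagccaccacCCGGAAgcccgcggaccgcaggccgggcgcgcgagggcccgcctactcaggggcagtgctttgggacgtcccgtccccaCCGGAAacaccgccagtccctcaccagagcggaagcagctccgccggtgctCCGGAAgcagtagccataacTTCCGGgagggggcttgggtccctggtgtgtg
Psmd10: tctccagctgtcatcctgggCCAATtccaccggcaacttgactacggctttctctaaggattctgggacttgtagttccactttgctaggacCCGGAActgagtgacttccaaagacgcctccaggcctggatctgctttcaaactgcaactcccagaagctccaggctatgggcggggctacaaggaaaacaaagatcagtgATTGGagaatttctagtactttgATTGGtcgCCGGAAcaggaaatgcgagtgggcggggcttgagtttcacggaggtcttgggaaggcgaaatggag
The Psma6 entry holds 4 ETS cores, starting 132, 53 and 2 bases before and 18 bases after the start, and that of Psmd10 holds 2. RefSeq gives Psma6 another start with no ETS core, and which start was used in these cells was not tested.

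After KLA for 1 hr no proteasome gene passed the RNA-Seq test, which asked for a limma p-value under 0.05 after Benjamini-Hochberg adjustment over all 10692 genes. Among all genes tested 2.0% were called higher and 2.13% lower. No member reached an unadjusted p under 0.05 either, where 23.1% of all genes tested did. The median change of the 39 genes was 0.02 on the log2 scale, that of all genes tested -0.21. Changes are fitted on log2(tags per 10 M + 10), which understates the change of low genes.

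The largest increases at 1 hr were in Psmd10 (0.46 ± 0.21, SE of the fit, adjusted p = 0.232), Psma6 (0.40 ± 0.22, adjusted p = 0.309) and Psma2 (0.38 ± 0.24, adjusted p = 0.373). The largest decreases were in Psmg3 (-0.61 ± 0.27, adjusted p = 0.228), Psmd2 (-0.38 ± 0.18, adjusted p = 0.253) and Psmf1 (-0.34 ± 0.18, adjusted p = 0.306). In Psmg3, a core chaperone, the low value was that of C57BL6/J, where the level went from 164 to 77.7 tags per 10 M, while BALBc/J went from 154 to 131. The catalytic genes Psmb6 (0.32 ± 0.21) and Psmb7 (0.14 ± 0.20) had adjusted p-values of 0.39 and 0.73. Leaving out either KLA 4 hr library, which are not part of this comparison but enter its error, gave 3 genes higher and 2 lower, where 4.54 to 4.57% of all genes tested were then higher and 30.3 to 30.5% lower. Leaving out BALBc/J KLA 1 hr gave 1 lower (1.76% of all genes tested).

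By 4 hr Psma6, an alpha ring subunit, and Psmd10, the base chaperone gankyrin, rose over 2-fold in the fit over both strains. In BALBc/J alone both rose by less, 0.85 on the log2 scale. The core chaperones Psmg1, Psmg2 and Psmg4, the base scaffold Psmd2 and the lid subunit Psmd8 fell in tags per 10 M, but were not called relative to the median gene. Psma5 and Psma8 were called as well, but reached the limit of 20 tags through the groups where they are high and so had to differ. The other 30 genes did not pass. Of the 39 genes 3 were called higher and 6 lower, where 11.8% of all genes tested were called higher and 44.6% lower. The median change was -0.17, against -0.47 for all genes tested. Without Psmc3ip and Psma8 the counts were 3 and 5, and without Psma5 also 2 and 5 of 36. In bulk samples fewer cells of a type and less RNA per cell cannot be told apart.

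Psma6 was at 895, 1153 and 2606 tags per 10 M in C57BL6/J (no treatment, KLA 1 hr and KLA 4 hr) and at 977, 1330 and 1774 in BALBc/J. Both 4 hr libraries lay above all the others. The fitted change at 4 hr was 1.19 ± 0.22 (adjusted p = 0.00262), or 1.53 in C57BL6/J and 0.85 in BALBc/J. Psma6 (NM_011968) lies on chromosome 12 from 56499811 to 56519446 (mm9, plus strand), 70949 bp from Nfkbia, which encodes the NF-kB inhibitor IkBa.

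Psmd10 (NM_016883, chromosome X, 137482963 to 137491250 on mm9, minus strand) was at 284, 403 and 794 tags per 10 M in C57BL6/J and at 347, 472 and 632 in BALBc/J. Again both 4 hr libraries were highest, and the 1 hr libraries lay between them and the untreated ones. Its change at 4 hr was 1.15 ± 0.21 (adjusted p = 0.00245), or 1.45 in C57BL6/J and 0.85 in BALBc/J. Psma6 and Psmd10 passed at 4 hr in every alternative run on all 6 libraries, also with the limit of 1 on the log2 change. Without each of the 6 libraries in turn the change was 0.83 to 1.55 for Psma6 and 0.86 to 1.44 for Psmd10. The p-values of those runs rest almost wholly on a spread pooled over genes and are no support for these calls.

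Psma5, another alpha ring subunit, was at 18.8, 17.0 and 34.1 tags per 10 M in C57BL6/J and 14.04, 14.6 and 24.2 in BALBc/J. Both 4 hr libraries were highest, and its change was 0.56 ± 0.19 (adjusted p = 0.0376). It reached the limit of 20 tags in the 4 hr libraries only and so had to differ, and its call supports nothing. It was lost without either untreated library (adjusted p = 0.224 and 0.231) and without the limit (0.052). Psma8 likewise entered through C57BL6/J alone, where it was at 25.9, 23.9 and 11.4 tags per 10 M, against 12.5, 12.4 and 6.90 in BALBc/J, and its change was -0.58 ± 0.20 (adjusted p = 0.0366).

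**Figure D3:**
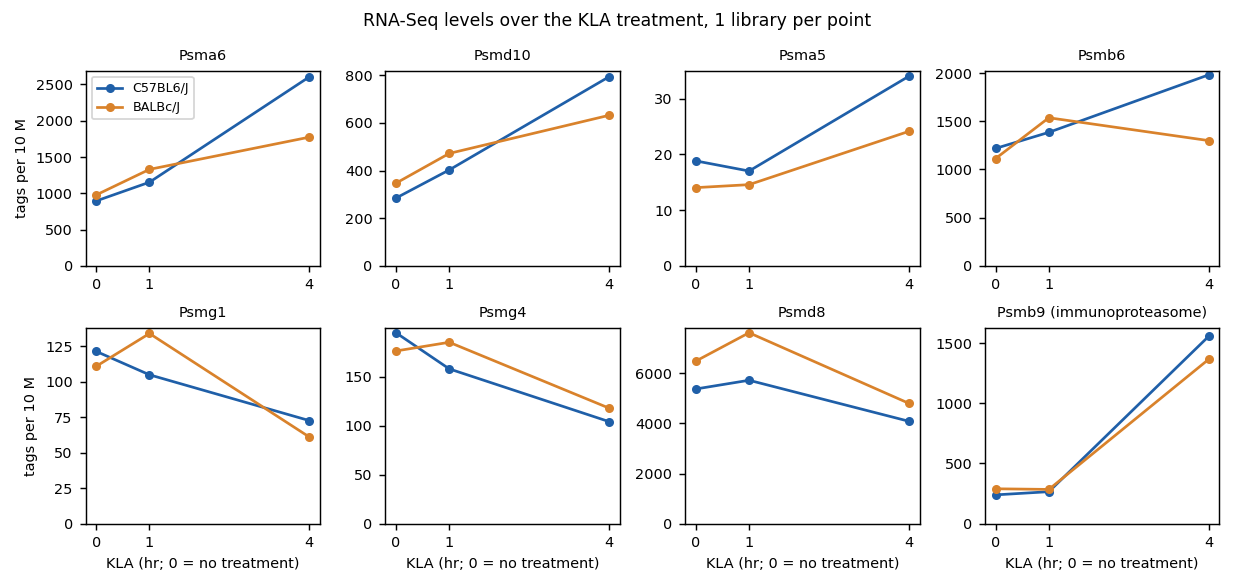
RNA-Seq level (tags per 10 M, axis from 0) of 7 proteasome genes and of Psmb9 against hours of KLA, where 0 is no treatment; each point is 1 library and colour gives the strain. Psma6 and Psmd10 are highest at 4 hr in both strains, Psmg1 and Psmg4 lowest, and Psmb9 is level to 1 hr and then far higher.

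The core chaperones Psmg1 to Psmg4 pair the alpha subunits and guide ring assembly. Psmg1 was at 121, 105 and 72.5 tags per 10 M in C57BL6/J and 111, 134 and 61.0 in BALBc/J, with a change at 4 hr of -0.72 ± 0.21 (adjusted p = 0.0205). Psmg4 was at 195, 158 and 104 in C57BL6/J and 176, 185 and 118 in BALBc/J, with a change of -0.69 ± 0.19 (adjusted p = 0.0166). Psmg2 stood at 164, 139 and 99.7 and at 151, 159 and 99.5, with a change of -0.61 ± 0.19 (adjusted p = 0.0257). In these 3 genes both 4 hr libraries were the lowest. Psmg3 did not pass (-0.23 ± 0.27, adjusted p = 0.485), and its 4 hr levels of 157 and 114 lay within the range of the other libraries. Relative to the median gene these decreases were not calls: with each library centred on the median of the tested genes Psmg1 was at -0.29, Psmg4 at -0.27 and Psmg2 at -0.18, with adjusted p-values of 0.353, 0.347 and 0.532.

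Psmd2 had a change of -0.56 ± 0.18 (adjusted p = 0.0293) and Psmd8 of -0.41 ± 0.15 (adjusted p = 0.0487). Psmd8 went from 5380 to 4089 tags per 10 M in C57BL6/J and from 6494 to 4805 in BALBc/J. With centred libraries neither was called: Psmd2 was at -0.13 (adjusted p = 0.643) and Psmd8 changed sign, to 0.02 (adjusted p = 0.961). The catalytic genes Psmb6 (0.46 ± 0.21, adjusted p = 0.094) and Psmb7 (0.12 ± 0.20, adjusted p = 0.627) did not pass. None of the 6 ATPase genes passed (-0.40 for Psmc3 to 0.06 for Psmc4). No chaperone but Psmd10 was called higher.

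The counts at 4 hr depended on how libraries were scaled. With each library centred on its median gene, 11 of the 39 genes were called higher and none lower, where 18.6% of all genes tested were called higher and 20.4% lower, and the median change of the 39 was 0.26. The 11 were Psma2, Psma3, Psma5 and Psma6 of the alpha ring, Psmb2 and Psmb6 of the beta ring, Psmd6, Psmd7, Psmd11 and Psmd14 of the lid and the chaperone Psmd10. Psma5 again entered through its 4 hr libraries only. Without Psma5, Psma8 and Psmc3ip 10 of 36 were called higher. In this scaling Psmb6 was at 0.89 (adjusted p = 0.0108) and Psmb7 at 0.55 (adjusted p = 0.0725). Single libraries also moved the counts: without BALBc/J KLA 4 hr, 10 genes were higher and 5 lower (all genes tested 12.8 and 52.0%), and without C57BL6/J KLA 4 hr 2 were higher and 15 lower (13.5 and 51.4%). Without the untreated library of C57BL6/J 2 were higher and none lower (8.44 and 22.8%), and the same without that of BALBc/J (9.12 and 24.2%).

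As a description, 2 other large complexes gave other medians at 4 hr. Of 51 cytosolic ribosomal protein genes none was called higher and 9 lower, with a median change of -0.30, and of 72 genes of the respiratory chain and ATP synthase none was higher and 20 lower, with a median of -0.41. After centring, the medians were 0.13 and 0.02, against 0.26 for the proteasome genes. The difference between these lists was not tested.

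**Figure D4:**
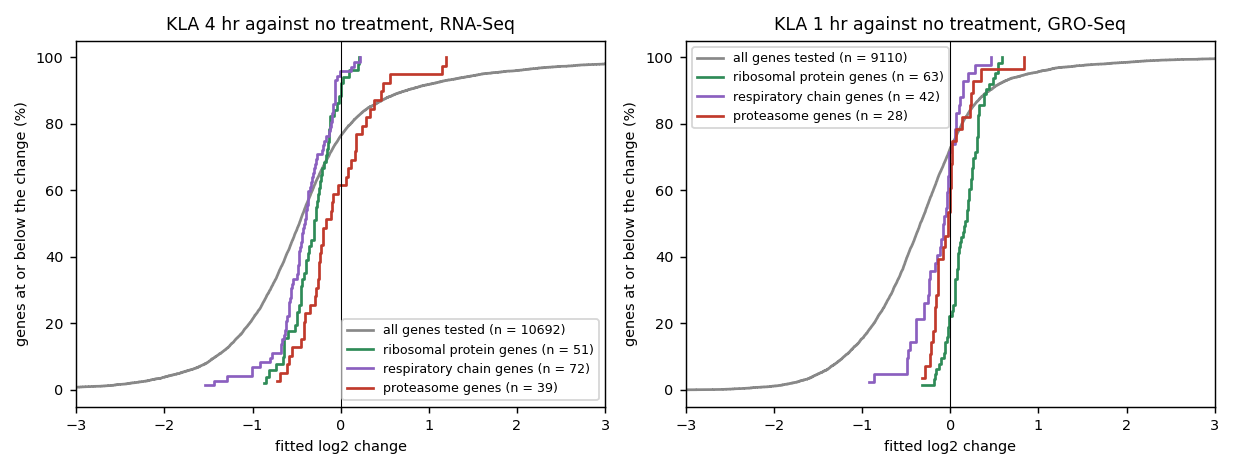
Cumulative share of genes (%) at or below a fitted log2 change, for KLA 4 hr in RNA-Seq (left) and KLA 1 hr in GRO-Seq (right), for all genes tested, 2 comparison lists and the proteasome genes. At 4 hr the proteasome curve lies right of all others over most of its range, with medians of -0.17, -0.30, -0.41 and -0.47 for proteasome, ribosomal, respiratory and all genes.

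From KLA 1 hr to 4 hr, 3 of the 39 genes were called higher and 3 lower, where 13.6% of all genes tested were called higher and 30.0% lower. Higher were Psma6 (0.79 ± 0.22, adjusted p = 0.0206), Psmd10 (0.69 ± 0.21, adjusted p = 0.0291) and Psma5 (0.59 ± 0.19, adjusted p = 0.0386), the last through the limit that only its 4 hr libraries reached. Lower were Psmg1 (-0.75 ± 0.21, adjusted p = 0.0222), Psmg4 (-0.58 ± 0.19, adjusted p = 0.0402) and Psmd8 (-0.58 ± 0.15, adjusted p = 0.0179). Psmg2 just missed (-0.54 ± 0.19, adjusted p = 0.051), and Psmg3 had 0.38 ± 0.27 (adjusted p = 0.289). Psmb6 (0.14 ± 0.21) and Psmb7 (-0.02 ± 0.20) had adjusted p-values of 0.623 and 0.953.

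Centring gave 4 genes higher, with Psmd11 added, and none lower in this comparison, where 18.1% of all genes tested were higher and 19.4% lower. Without Psma5, Psma8 and Psmc3ip 3 of 36 were higher. Without BALBc/J KLA 4 hr the counts were 8 higher and 5 lower (all genes tested 14.3 and 38.8%). Without C57BL6/J KLA 4 hr they were 1 and 14 (19.3 and 39.3%), and without C57BL6/J KLA 1 hr none and 3 (13.2 and 22.6%). Without BALBc/J KLA 1 hr they were 3 and none (10.7 and 23.1%). They were 1 and 1 without the untreated library of C57BL6/J (12.4 and 24.2%) or of BALBc/J (12.3 and 24.0%). The comparisons of KLA 1 hr and KLA 4 hr with no treatment share their untreated libraries, and this one shares the 4 hr libraries with the one before.

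Between the strains no proteasome gene of the 39 was called over the 3 treatments, where 2.71% of all genes tested were higher in C57BL6/J and 5.89% lower. At an unadjusted p under 0.05 there were 2, Psma8 and Psmd8, where 20.4% of all genes tested had one. The largest differences, C57BL6/J minus BALBc/J, were in Psma8 (0.54 ± 0.16, adjusted p = 0.0894), Psma5 (0.26 ± 0.16, adjusted p = 0.439) and Psmb6 (0.20 ± 0.17, adjusted p = 0.62). At the other end stood Psmd8 (-0.31 ± 0.13, adjusted p = 0.215), Psmd2 (-0.24 ± 0.15, adjusted p = 0.444) and Psmf1 (-0.21 ± 0.15, adjusted p = 0.525). Psma8 was higher in C57BL6/J in all 3 treatments and was called with centred libraries (0.64), but had entered through that strain.

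The response at 4 hr differed in size between the strains over most of the complex. In 35 of 39 genes (89.7%) the change was more positive in C57BL6/J than in BALBc/J, where this held for 49.8% of all genes tested. The median change of the 39 genes was 0.06 in C57BL6/J and -0.32 in BALBc/J, while all genes tested had -0.47 in both. The largest gaps were in Psma2, with 0.91 against 0.05, and Psma1, with 0.07 against -0.66. Psma1 was at 882 and 928 tags per 10 M in C57BL6/J (no treatment and KLA 4 hr) and at 1047 and 657 in BALBc/J. From 1 hr to 4 hr, 38 of 39 genes (97.4%) were on the C57BL6/J side, against 47.8% of all genes tested. From no treatment to 1 hr it was the reverse, with 11 of 39 (28.2%) against 57.5%. The 3 comparisons share libraries. With 1 library per strain and time these differences have no residual and were not tested.

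Other large complexes gave similar values. At 4 hr the change was more positive in C57BL6/J in 47 of 51 ribosomal protein genes (92.2%) and 70 of 72 respiratory genes (97.2%), with median differences of 0.36 and 0.43, against 0.34 for the proteasome genes. Among 6729 tested genes with an mRNA length in the range of the proteasome genes the share was 66.4%. From 1 hr to 4 hr the shares were 94.1% of ribosomal, 97.2% of respiratory and 66.0% of these length-range genes. From no treatment to 1 hr they were 25.5%, 31.9% and 47.9%. The BALBc/J KLA 4 hr library also had the lowest share of its exon tags in the proteasome genes, 0.298%, where the other 5 had 0.32 to 0.382%. A difference in the 4 hr libraries and one between strains cannot be told apart.

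**Figure D5:**
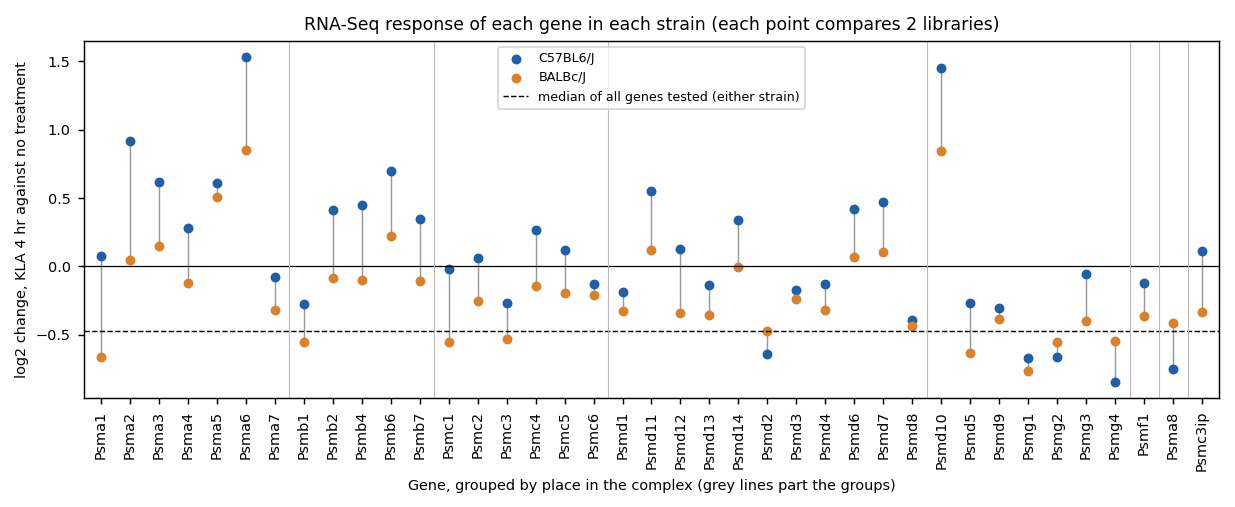
Log2 change from no treatment to KLA 4 hr of each of the 39 genes in C57BL6/J (blue) and BALBc/J (orange), grouped by place in the complex; each point compares 2 libraries and the dashed line is the median of all genes tested. The blue point is above the orange one in 35 of 39 genes, and Psma6 and Psmd10 stand above the rest in both strains.

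In GRO-Seq 28 of the 39 genes passed the limit, and none was called after KLA for 1 hr, where 5.49% of 9110 genes tested were called higher and 23.0% lower. At an unadjusted p under 0.05 there was 1, Psmb6, where 37.6% of all genes tested had one. The median change of the 28 was -0.02, against -0.34 for all genes tested. Psmb6 was at 37.9 and 54.6 tags per 10 M in C57BL6/J (no treatment and KLA 1 hr) and at 29.0 and 81.8 in BALBc/J, a change of 0.83 ± 0.36 (adjusted p = 0.066). Psmd11, a lid subunit, had 0.35 ± 0.32 (adjusted p = 0.461) and Psma6 0.26 ± 0.36 (adjusted p = 0.657). Psma6 was at 46.5 and 48.5 in C57BL6/J and at 49.1 and 71.4 in BALBc/J, so BALBc/J after KLA stood above the other 3 libraries.

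The largest GRO-Seq decreases were in Psmc3ip (-0.33 ± 0.24, adjusted p = 0.337), Psmd1 (-0.28 ± 0.34, adjusted p = 0.59) and Psmd12 (-0.23 ± 0.36, adjusted p = 0.687). Psmb7 had -0.21 ± 0.26 (adjusted p = 0.594). Psmb7 reached the limit in the untreated libraries only, so without centring its change had to be a decrease, and its sign supports nothing. Psmd10 did not pass the limit, with 14.2 and 14.9 tags per 10 M in C57BL6/J and 19.3 and 26.2 in BALBc/J, and neither did Psmg1 to Psmg4. With centred libraries 11 of the 28 were called higher and none lower, where 26.6% of all genes tested were higher and 26.7% lower, led by Psmb6 at 1.19, Psmd11 at 0.70 and Psma6 at 0.61. The fit has 1 residual degree of freedom, and its p-values rest on a spread pooled over genes.

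Between the strains no member was called in GRO-Seq, where 0.45% of all genes tested were higher in C57BL6/J and 0.538% lower. At an unadjusted p under 0.05 there was 1, Psmc3ip, where 7.38% of all genes tested had one. Psmc3ip reached the limit in the BALBc/J libraries only and so had to be lower in C57BL6/J, and its strain difference supports nothing. The largest differences were in Psmd4 (0.29 ± 0.36, adjusted p = 0.814), Psmc3 (0.13 ± 0.36, adjusted p = 0.923) and Psmd1 (0.13 ± 0.34, adjusted p = 0.92). Lowest in C57BL6/J relative to BALBc/J were Psmc3ip (-0.57 ± 0.24, adjusted p = 0.5), Psmd9 (-0.50 ± 0.33, adjusted p = 0.718) and Psmd5 (-0.48 ± 0.36, adjusted p = 0.731).

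p65 peaks stood near many of these genes after KLA. A peak lay within 1000 bp of the start in all 4 lists at 15 of 39 genes (38.5%), against 39.6% of genes tested, and within 200 bp at 30.8% against 22.9%. In any list the shares were 74.4% and 73.8% within 1000 bp, and 69.2% and 56.1% within 200 bp. Within 1000 bp both replicates of C57BL6/J had one at 25 genes (64.1%, against 57.1% of genes tested) and both of BALBc/J at 15 (38.5% against 41.5%), and the peak calling for p65 in BALBc/J used the input DNA of C57BL6/J. Psma6 and Psmd10 were among the 15. At Psma6 the peak lay 62 to 97 bp before the start, with 96.7 and 124 tags per 10 M in C57BL6/J and 70.0 and 52.4 in BALBc/J. At Psmd10 the strongest peak lay 973 to 982 bp after the start, with 267 and 385 in C57BL6/J and 280 and 456 in BALBc/J. Psmb6 had a p65 peak in both C57BL6/J lists (88.4 and 130 tags per 10 M) and in neither of BALBc/J.

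The H3K27Ac region at the start of Psma6 held more signal after KLA for 1 hr in both strains. Its signal went from 225 to 409 tags per 10 M in C57BL6/J and from 222 to 438 in BALBc/J. The regions also grew, from 2082 to 4319 bp and from 2277 to 3667 bp, and signal per length was not compared. The values are for whole regions, so they do not show a rise at the start itself. At Psmd10 the signal went from 49.0 to 60.1 in C57BL6/J and from 23.9 to 165 in BALBc/J. In BALBc/J this was the largest increase of any member. The strongest region within 1000 bp was taken in each list, so the values of a strain need not be from the same region. Over the members with a region in both lists the median log2 ratio of KLA to no treatment was -0.10 in C57BL6/J (38 genes) and 0.08 in BALBc/J (37 genes). Signal and region length are the authors' values for each list, and with 1 list per strain and treatment these changes have no replicate check.

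Among related genes of the pathway all 3 immunoproteasome subunits rose. At 4 hr 7 of 36 related genes tested were called higher and 7 lower, where 11.8% and 44.6% of all genes tested were. Psmb9 rose from 239 to 1558 tags per 10 M in C57BL6/J and from 289 to 1367 in BALBc/J (2.43 ± 0.19, adjusted p = 3.77e-05). Psmb10 changed by 2.05 ± 0.19 (adjusted p = 8.08e-05) and Psmb8 by 1.76 ± 0.21 (adjusted p = 0.000311). Of the activators, which open the core, Psme1 and Psme2 rose by 1.22 and 1.34, and Psme3 and Psme4 did not pass. The lowest were Ubqln2, a ubiquitin shuttle (-1.40 ± 0.18, adjusted p = 0.00051), and Ddi2, the protease that processes Nfe2l1 (-1.20 ± 0.27, adjusted p = 0.0071). With centred libraries 9 related genes were higher and 2 lower (Ubqln2 and Ddi2), where 18.6% and 20.4% of all genes tested were.

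Set side by side with the subunit it can replace, Psmb9 was below Psmb6 in levels per kb before KLA 4 hr. At 4 hr it was level with Psmb6 in C57BL6/J and above it in BALBc/J. Psmb10 was above Psmb7 from the start. Psmb6 and Psmb7 are among the genes with named pseudogenes, so these rankings between genes are uncertain. Each ratio rests on 1 library. The ratio of Psmb9 to Psmb6 in RNA-Seq was 0.252, 0.246 and 1.01 in C57BL6/J (no treatment, KLA 1 hr and KLA 4 hr) and 0.334, 0.238 and 1.35 in BALBc/J. That of Psmb10 to Psmb7 was 1.39, 1.28 and 4.95 in C57BL6/J and 1.16, 1.17 and 4.80 in BALBc/J. Both ratios were highest at 4 hr in both strains. Of the denominators, Psmb6 was at 1219, 1386 and 1982 tags per 10 M in C57BL6/J and 1113, 1537 and 1300 in BALBc/J. Psmb7 was at 330, 349 and 422 in C57BL6/J and 375, 432 and 349 in BALBc/J. No ratio of Psmb8 to Psmb5 is given, since Psmb5 was near 0.

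Among the regulators, Maff, a small Maf protein that pairs with Nfe2l1 and Nfe2l2, was the only related gene called at 1 hr in RNA-Seq without centring, from 127 to 1419 tags per 10 M in C57BL6/J and from 146 to 1945 in BALBc/J (3.52 ± 0.18, adjusted p = 1.94e-05). At 4 hr it was still higher than untreated (1.97 ± 0.18, adjusted p = 7.62e-05), and Mafk rose by 0.49. Nfe2l1 did not pass at 4 hr (0.52 ± 0.23, adjusted p = 0.0831), was called with centred libraries (0.95, adjusted p = 0.00591), and rose by 1.12 from 1 hr to 4 hr (adjusted p = 0.0057). Nfe2l2 did not pass at 1 hr (0.67 ± 0.16, adjusted p = 0.0617) but was called with centred libraries (0.88, adjusted p = 0.021). From 1 hr to 4 hr it was lower (-0.67 ± 0.16, adjusted p = 0.0116), a call lost with centred libraries (-0.45, adjusted p = 0.07). In GRO-Seq at 1 hr Psme2 (1.39 ± 0.29, adjusted p = 2.53e-05) and Maff (0.92 ± 0.34, adjusted p = 0.0288) were higher. Ddi2 (-1.67 ± 0.34, adjusted p = 1.39e-05), AI314180 (-0.94 ± 0.34, adjusted p = 0.0221) and Ube3c (-0.88 ± 0.36, adjusted p = 0.047) were lower. Between the strains Mafk was lower in C57BL6/J (-1.13 ± 0.14, adjusted p = 0.00248).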

How the data were processed

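RNA-Seq and GRO-Seq values were deposited by the authors as log2 of 1 plus exon tags per 10 M library tags. Within each value lies a random part of up to 1 tag, which was removed here by rounding down to whole library tags. Bowtie 0.12.7, HOMER and mm9 are named in the submitters' processing notes. Peak signal is the authors' value, tags per 10 M per the file headers. HOMER called every list on 1 sample against an input, per the file headers.

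The transcript with the highest RNA-Seq mean stood for each gene. Genes with 20 tags per 10 M in at least 2 libraries were fitted with limma 3.58.1 (R 4.3.3, lmFit and eBayes with trend) on log2(tags per 10 M + 10), with additive strain and treatment terms, per assay, and Benjamini-Hochberg adjustment at 0.05 over all tested genes. The scripts were tested on simulated data. For KLA changes the strains act as replicates. A gene's response by strain leaves no residual and was given as a value.

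Named are, per comparison, the 3 members with the largest increase and decrease, Psmb5 to Psmb7, Psmg1 to Psmg4 and up to 4 related genes each way; others named were chosen after their values were seen. Members and lists were chosen with earlier results of these data known. Of 40 samples 30 were used, and 10 were not analysed here (NOD/ShiLtJ, CB6F1/J F1 Hybrids and inputs). Some related genes and markers are not reported here.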

Additional observations from a re-analysis of the deposited data

Results flagged for a closer look

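In 11 cases a gene's change after KLA had opposite signs in the 2 strains, with a size of at least 0.2 on the log2 scale in each. Each strain's change compares 2 libraries, and these differences were not tested. Given as C57BL6/J minus BALBc/J, the 8 cases from KLA 1 hr to 4 hr in RNA-Seq were Psma4 (0.79), Psmb6 (0.75), Psmb4 (0.70), Psma2 (0.66), Psmc5 (0.58), Psmb7 (0.57), Psmb2 (0.55) and Psmc4 (0.49). All 8 were positive in C57BL6/J and negative in BALBc/J, as in Psma4 with 0.58 and -0.21, and all share the same 4 libraries. Psmd4 went the other way from no treatment to KLA 1 hr in RNA-Seq, with -0.29 and 0.23 (difference -0.53). In GRO-Seq Psmd7 had -0.44 and 0.46 (difference -0.90) and Psmd3 -0.28 and 0.26 (difference -0.55), where the median change of all genes tested was -0.58 in C57BL6/J and -0.10 in BALBc/J.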

How the results depend on the processing

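No paired analysis was possible because RNA-Seq and GRO-Seq labels carry no replicate numbers, and the numbered p65 lists entered no test. This concerns pairing by replicate number only. Strain was a term in every fit, so the KLA changes were already fitted with the strain of each library taken into account. The calls of Psma6 and Psmd10 at 4 hr held in all alternatives that kept every library. With libraries centred on the median gene, calls became 11 higher and 0 lower at 4 hr, 0 lower from 1 to 4 hr, 11 higher in GRO-Seq at 1 hr, and 1 higher in each strain comparison. Between strains 3.93% of all genes tested were then higher and 4.82% lower in RNA-Seq, and 9.15% and 4.41% in GRO-Seq. Centring also changed the sign of 12 of 39 fitted changes at 1 hr, 18 at 4 hr (Psmd8 among them, the only called one), 10 from 1 to 4 hr and 13 between strains in RNA-Seq, and of 17 and 10 of 28 in GRO-Seq. Among genes named for these comparisons they were, at 1 hr, Psmg2 (0.14) and Psmg4 (0.11), at 4 hr Psmg3 (0.20), from 1 to 4 hr Psmb7 (0.20), between strains in RNA-Seq Psmb7 (0.027), Psmg2 (0.074), Psmg3 (0.041) and Psmg4 (0.016), in GRO-Seq at 1 hr Psmc3ip (0.025), Psmd1 (0.068), Psmd12 (0.12) and Psmb7 (0.14), and between strains in GRO-Seq Psmb6 (0.12) and Psmb7 (0.15). With a pseudocount of 50 Psmg1 was at -0.005 between strains. Requiring a change of 1 left 0 lower at 4 hr, and 0 higher and 0 lower from 1 to 4 hr. Of all 10692 genes tested it left 2275 lower at 4 hr, and 927 higher and 1446 lower from 1 to 4 hr. Without a filter there were 3 lower at 4 hr, 1 lower from 1 to 4 hr and 1 higher in GRO-Seq at 1 hr. Without the trend there were 5 lower from 1 to 4 hr and 1 higher in GRO-Seq at 1 hr, and a pseudocount of 2 gave 5 lower from 1 to 4 hr. The cause was not tested. For the runs without a filter, without the trend and with a pseudocount of 2, shares over all genes tested are not given. Their counts are therefore no result about the members.

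Leaving out 1 library at a time leaves 1 residual degree of freedom and lets a lone library stand for its group. The p-values of these runs rest almost wholly on a spread pooled over genes, and their counts are no result about the members. Calls then ranged from 0 to 3 higher and 0 to 2 lower at 1 hr, 2 to 10 higher and 0 to 15 lower at 4 hr, 0 to 8 higher and 0 to 14 lower from 1 to 4 hr, and 0 to 1 higher between strains. Values whose sign changed ranged, at 1 hr, from -0.037 to 0.311 (Psmb7), -0.22 to 0.28 (Psmg1), -0.196 to 0.047 (Psmg2) and -0.273 to 0.054 (Psmg4), at 4 hr from -0.13 to 0.38 (Psmb7) and -0.59 to 0.13 (Psmg3), from 1 to 4 hr from -0.17 to 0.44 (Psmb6), -0.27 to 0.24 (Psmb7) and -0.091 to 0.847 (Psmg3), and between strains from -0.01 to 0.37 (Psmb6), -0.24 to 0.045 (Psmb7), -0.10 to 0.17 (Psmg1), -0.091 to 0.057 (Psmg2) and -0.30 to 0.26 (Psmg3).

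With peaks at or over the median signal of their list, genes in every list were 18 for PU.1 (46.2%, against 42.5% of genes tested), 22 for H3K27Ac (56.4% against 47.0%) and 6 for p65 (15.4% against 21.0%), and a window of 2000 bp gave 15 for C/EBPa (38.5% against 46.6%). Low GRO-Seq exon tags limit what can be seen there.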
